A study of Mus musculus with 8 samples.

Results

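The G2 and mitosis genes described here are a list of 44 genes whose products drive or carry out cell division. They were picked by name, with earlier results of these data known. Of the 44, 43 were measured, among 18193 genes on the arrays. Ccnb1, which encodes cyclin B1, had no probe set with exactly 1 matching symbol and was not analysed here. RNA came from T29, a thymic lymphoma line of the mouse. It lacks Ikaros, a zinc finger transcription factor of the lymphoid lineage, so that all 4 groups share that loss. The cells had been transduced with the empty retroviral vector, MigR1, or with MigR1-Ik1ER, which adds an inducible Ikaros protein, and were kept for 24 h in 100 nM 4OHT (4-hydroxytamoxifen, the inducer) or in ethanol, its solvent. Each of the 4 groups had 2 arrays: MigR1 in ethanol, MigR1 in 4OHT, Ik1ER in ethanol and Ik1ER in 4OHT. The labels do not say whether a transduced line is 1 clone or a pool, nor whether the replicates were separate cultures, so p-values measure the spread between these arrays, which may be technical. All levels are log2 values, on which a difference of 1 is a doubling.

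Cells enter mitosis when CDK1, bound to a B-type or A-type cyclin and freed of its inhibitory phosphates by CDC25 phosphatases, phosphorylates its many targets. Aurora and Polo-like kinases then help build the spindle, kinetochores attach chromosomes to it, the spindle checkpoint holds anaphase back until all are attached, and the anaphase-promoting complex with CDC20 releases them. Most of these genes are transcribed in G2 and M through promoters that carry a cell cycle homology region (CHR) and CCAAT boxes, bound by the DREAM complex in quiescent cells and by B-MYB and FOXM1 complexes in dividing cells, with NF-Y on the CCAAT boxes. In thymocytes, bursts of division alternate with resting stages.

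Promoter windows of 7 members are shown because they show how the promoter elements lie. With 4OHT in Ik1ER cells, the first 4 had the smallest p among members with 1 promoter entry, and read higher, and the last 3 had the lowest differences. Each is the 140 bases from 120 before to 20 after the annotated start, in the gene's own direction, from RefSeq on build GRCm38.p6. Capitals mark the letters TTTGAA of a CHR or CCAAT of the box of that name, or either on the opposite strand, where the first reads TTCAAA and the other one reads ATTGG.
Ccnb2, chr9:70421535-70421674, minus strand: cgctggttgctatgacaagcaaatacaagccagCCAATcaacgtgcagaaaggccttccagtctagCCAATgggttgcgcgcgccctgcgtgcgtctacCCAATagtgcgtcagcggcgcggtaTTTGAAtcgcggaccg
Top2a, chr11:99024170-99024309, minus strand: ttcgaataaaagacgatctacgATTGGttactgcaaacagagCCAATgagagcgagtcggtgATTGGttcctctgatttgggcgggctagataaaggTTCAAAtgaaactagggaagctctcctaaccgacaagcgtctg
Racgap1, chr15:99651637-99651776, minus strand: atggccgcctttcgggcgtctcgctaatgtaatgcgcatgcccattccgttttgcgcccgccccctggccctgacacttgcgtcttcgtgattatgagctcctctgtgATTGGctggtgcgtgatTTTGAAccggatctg
Cenpe, chr3:135212443-135212582, plus strand: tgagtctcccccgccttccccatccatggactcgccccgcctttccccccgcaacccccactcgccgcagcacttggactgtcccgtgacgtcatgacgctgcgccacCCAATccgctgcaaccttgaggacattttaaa
Cdc20, chr4:118437324-118437463, minus strand: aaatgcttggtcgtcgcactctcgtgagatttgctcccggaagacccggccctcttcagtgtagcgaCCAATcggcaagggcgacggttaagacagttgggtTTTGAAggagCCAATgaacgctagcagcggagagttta
Ckap2, chr8:22185800-22185939, minus strand: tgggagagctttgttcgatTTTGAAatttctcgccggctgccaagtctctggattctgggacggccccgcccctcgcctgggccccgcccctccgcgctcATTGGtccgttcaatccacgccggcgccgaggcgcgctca
Anln, chr9:22389187-22389326, minus strand: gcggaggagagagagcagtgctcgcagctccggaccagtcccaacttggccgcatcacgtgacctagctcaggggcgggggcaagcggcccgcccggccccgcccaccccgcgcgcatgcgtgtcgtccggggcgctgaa
Ccnb2 holds 1 CHR match just after the start and 3 CCAAT matches before it, and Top2a, Racgap1 and Cdc20 hold both kinds too. Cenpe holds 1 CCAAT match and no CHR match. In Ckap2 the CHR match lies farther upstream, with its first base at position -101 from the start, and the 2 CHR matches of Anln begin 22 and 29 bases after the start, past the end of the window shown.

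Of the 43 members, 35 had an entry in the RefSeq promoter table, which gives 300 bases (250 before to 50 after the start), and 3 of these had 2 entries. The CHR letters were found on either strand in 28 of the 35 members (80.0%), against 15.7% of the 14452 genes tested on the arrays that had an entry. Within 50 bases of the start they were found in 26 members (74.3%), against 4.09% of those genes. CCAAT was found in 27 members (77.1%) against 42.0%, and within 50 bases of the start in 21 members (60.0%) against 15.9%. The letters TGGGAA, the core that Ikaros zinc fingers are known to bind, were found in 6 members (17.1%) against 27.5%. Matches to different motifs can share letters at their ends, and a match is a description of the window and not evidence of binding. The other G2 and mitosis genes described further on held CHR letters in 28 of 61 (45.9%), and S phase genes in 5 of 30 (16.7%), so that the CHR letters were more frequent in the members' windows than in either list or in all genes. The 7 members without CHR letters were Birc5, Bub1, Cdc25b, Cenpe, Mad2l1, Nuf2 and Nusap1. With 4OHT in Ik1ER cells their median log2 difference was 0.17 (range 0.10 to 0.54), and that of the 28 with CHR letters was 0.12 (range -0.12 to 0.30), so the 2 sets overlapped.

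**Figure D1:**
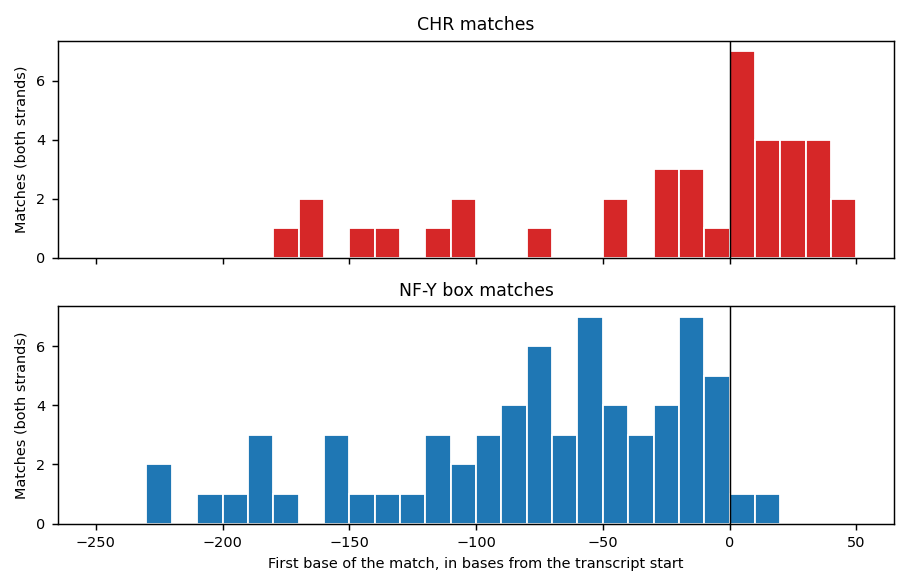
Number of CHR matches (top) and NF-Y box (CCAAT) matches (bottom) by the position of their first base from the annotated start (bases, bars of 10), on either strand, over the 38 promoter entries of 35 members; a match in both entries of a gene is counted in each. CHR matches crowd around and just after the start (26 of 35 members have 1 within 50 bases of it), and NF-Y box matches lie mostly upstream of it.

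The cells carried the marks of their label. All 9 measured T cell lineage markers lay above 5.27, the top mean among 27 control probe sets for Bacillus genes, which have no target in mouse RNA, and their mean per array ran from 11.06 to 11.30. Of the markers of other cell types, 1 of 4 B cell, 3 of 5 myeloid, 0 of 2 erythroid and 1 of 5 stromal genes lay above that control. Their means per array were 4.74 to 4.90, 5.22 to 5.57, 4.07 to 4.29 and 4.93 to 5.16. The stromal gene above the control was Pdgfrb, which lay far above it, with a mean of 9.06. Of the myeloid markers, Cd14 and Lyz2 fell with 4OHT in Ik1ER cells (-1.26 and -0.60; limma adjusted p 0.000592 and 0.0225) and Itgam rose (0.54; adjusted p 0.0208), and the part of other cell types in the members' values was not tested. Of the 9 T cell lineage markers, Cd8a and Cd4 rose there (1.84 and 0.72; limma adjusted p 0.0165 and 0.0259), and Cd3g, Ptcra, Cd3d and Cd3e fell (-0.69 to -0.43), with 0 called in MigR1 cells; their part in the members' values was not tested either. The Ik1ER replicate 2 arrays stood apart in the 3' minus 5' difference of the transferrin receptor control. It was 1.66 (ethanol) and 1.91 (4OHT) there, and between 1.16 and 1.39 on all other arrays. The hybridization controls were low on the 4OHT array of this pair alone, at 8.86. On all other arrays, the ethanol array of the pair included, they averaged 9.41 to 9.54.

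All 43 members lay above the highest Bacillus control mean, from 8.34 for Cdc25c to 12.97 for Ube2c, the ubiquitin-conjugating enzyme of the anaphase-promoting complex. Levels of different probe sets are not comparable between genes, so these values show only that each was detected. Over the 8 arrays a member's highest and lowest value differed by a median of 0.28, from 0.09 for Cdc20 to 0.94 for Cdc25b.

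With 4OHT in Ik1ER cells, 39 of the 43 members (90.7%) read higher than in ethanol, against 48.8% of all genes tested. The members' median difference was 0.14 (quartiles 0.09 and 0.21), about 10% in linear terms, against -0.004 for all genes (quartiles -0.10 and 0.09). No single member passed the test: limma called 0 of 43 at an adjusted p under 0.05, against 971 of 18193 genes (5.34%), of which 510 rose (2.80%) and 461 fell (2.53%). At an unadjusted p under 0.05, 14 members were higher (32.6%, against 9.16% of genes) and 0 were lower (against 8.59%). Both 4OHT arrays lay above both ethanol arrays in 33 members (76.7%, against 21.0% of genes) and below both in 3 members (6.98%, against 21.7%). In an RNA sample of a whole culture, more cells in G2 and mitosis and more of these transcripts per cell cannot be told apart.

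Some alternative settings called members, and more genes in all. With the trend and robust settings of eBayes, 8 members were called (18.6%, against 7.44% of genes): Ccnb2, Cdca3, Cenpe, Dlgap5, Nusap1, Racgap1, Smc4 and Top2a. When genes with a mean below 5.40 were left out, Cenpe, Ccnb2 and Dlgap5 were called (6.98%, against 10.9% of the 10984 genes kept), and after a repeated quantile normalization Cenpe was (2.33%, against 6.0%). Of these 3 settings, the first alone called a larger share of the members than of all genes. The members' median level was 10.73, against 6.40 for all genes, and the part of level in these shares was not tested. The standard error of a member's difference was 0.07 to 0.22 (median 0.08), and the smallest difference called in any gene was 0.29 in size. The 95% intervals of the members reached from -0.43 for Kif11 to 0.92 for Cdc25b, which is the precision that 2 arrays a group gave.

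**Figure D2:**
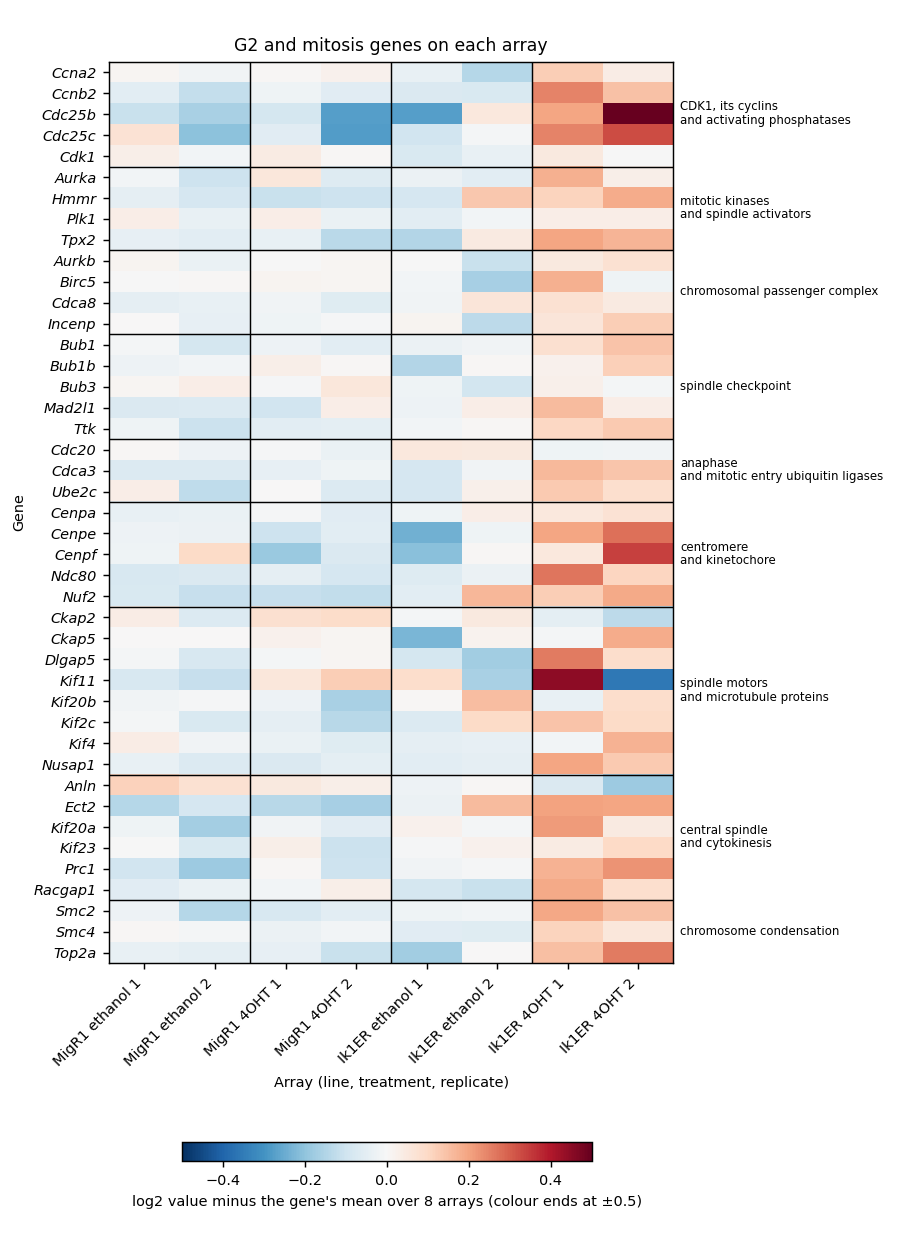
Each member's log2 level minus its own mean over the 8 arrays (colour), with members in rows grouped by role and arrays in columns by group. The 2 Ik1ER 4OHT arrays have 37 and 36 of 43 members above their own mean, and each of the other 6 arrays has between 5 and 19.

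Array by array, the median member stood 0.13 and 0.10 above its own mean on the 2 Ik1ER 4OHT arrays, with 37 and 36 of 43 members above. On the other 6 arrays it stood between -0.07 and -0.01, with 5 to 19 members above. Both Ik1ER 4OHT arrays lay above all 6 other arrays in 26 members (60.5%), against 12.6% of all genes. With both Ik1ER replicate 2 arrays left out, the members' median difference was 0.19 and 39 members were still above 0.

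CDK1, its cyclins and its activating phosphatases had the highest median of any role, 0.27 over 5 measured members, all 5 of them above 0. Ccnb2, which encodes cyclin B2, read 12.13 and 12.06 in MigR1 ethanol, 12.16 and 12.13 in MigR1 4OHT, 12.11 and 12.11 in Ik1ER ethanol, and 12.43 and 12.33 in Ik1ER 4OHT. Both induced arrays lay above the other 6, which spanned about 0.1. The difference in Ik1ER cells was 0.27 (SE 0.07; limma adjusted p 0.0808), against 0.05 in MigR1 cells.

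Cdc25b, a phosphatase that activates CDK1 at mitotic entry, read 9.64 and 9.59, 9.66 and 9.47, 9.47 and 9.80, and 9.95 and 10.41 in the same order of groups. The induced arrays were the highest 2, and they were also far from each other. Its difference, 0.54 (SE 0.17; limma adjusted p 0.121), was the largest of any member, a fold of 1.45. It was 0.77 (adjusted p 0.0426) without replicate 1 of Ik1ER 4OHT and 0.31 (adjusted p 0.334) without replicate 2, so 1 array decided the call.

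Cdc25c, its relative, read 8.41 and 8.14, 8.29 and 8.06, 8.24 and 8.33, and 8.59 and 8.67. The groups did not overlap, with a difference of 0.34 (SE 0.11; limma adjusted p 0.155), and its probe set is one that may also bind related transcripts, the other giving 0.21. Ccna2 (cyclin A2) and Cdk1 itself gave 0.17 and 0.08.

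At centromeres and kinetochores the median was 0.24 over 5 members, all above 0. Cenpe, the kinesin-like motor that moves chromosomes to the spindle equator, read 10.16 and 10.15 in MigR1 ethanol, 10.08 and 10.13 in MigR1 4OHT, 9.94 and 10.16 in Ik1ER ethanol, and 10.38 and 10.46 in Ik1ER 4OHT. The induced arrays stood 0.2 or more above every other array. The difference was 0.37 (SE 0.09), with the smallest adjusted p of any member (limma, 0.0577).

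Cenpf, a kinetochore protein that accumulates in G2, read 10.12 and 10.23, 9.95 and 10.07, 9.93 and 10.14, and 10.19 and 10.48. Both induced arrays lay above the Ik1ER ethanol arrays, but replicate 1 lay within the range of the MigR1 arrays. The difference of 0.30 (SE 0.12, limma adjusted p 0.239) was 0.15 without Ik1ER 4OHT replicate 2 and 0.19 without Ik1ER ethanol replicate 1. Between Ik1ER arrays of the same number Cenpf rose in both, from 9.93 to 10.19 and from 10.14 to 10.48.

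Nuf2 and Ndc80 encode partners in the NDC80 complex, which grips microtubules. Nuf2 read 9.63 and 9.59, 9.59 and 9.58, 9.65 and 9.87, and 9.83 and 9.90, so that the Ik1ER groups overlapped. Its difference was 0.10 (SE 0.09; limma adjusted p 0.655) and lay at -0.01 without replicate 1 of Ik1ER ethanol. Ndc80 gave 0.24 (adjusted p 0.149), and Cenpa, the centromeric histone H3 variant, gave 0.06.

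Chromosome condensation genes had a median of 0.19 over 3 members, all above 0. Top2a, the topoisomerase that untangles sister chromatids, read 12.62 and 12.61, 12.61 and 12.54, 12.48 and 12.65, and 12.81 and 12.91. Its induced arrays lay above all 6 others, by 0.29 on the means against ethanol (SE 0.09; limma adjusted p 0.104). The condensin subunits Smc2 and Smc4 gave 0.19 and 0.14.

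Among the mitotic kinases and spindle activators the median was 0.14 over 4 members, all above 0. Tpx2, which activates Aurora A on the spindle, read 11.09 and 11.08, 11.10 and 11.00, 10.99 and 11.18, and 11.33 and 11.31. The induced arrays were the highest 2, with a difference of 0.23 (SE 0.09; limma adjusted p 0.192) that was 0.14 without replicate 1 of Ik1ER ethanol. The kinases themselves gave less: Aurka 0.15 and Plk1 0.07, with Hmmr, a spindle-associated protein, at 0.12.

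The chromosomal passenger complex corrects faulty attachments, and its 4 members had a median of 0.13, all above 0. Incenp, its scaffold, read 12.02 and 11.98, 11.996 and 12.01, 12.03 and 11.89, and 12.08 and 12.14. The groups did not overlap, but the gap was narrow: the difference of 0.15 (SE 0.08; limma adjusted p 0.381) was 0.08 without replicate 2 of Ik1ER ethanol. Birc5 (survivin), Aurkb and Cdca8 (borealin) gave 0.17, 0.12 and 0.04. The probe sets that stood for Aurkb and Incenp may bind related transcripts. The other Aurkb probe set gave 0.01. The other Incenp probe sets gave 0.17, 0.18 and 0.25, and a dim one gave -0.08.

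The 5 spindle checkpoint genes, all above 0, had a median of 0.12 and the narrowest range of any role of that size, 0.07 to 0.14. Bub1, a checkpoint kinase, read 11.25 and 11.17, 11.23 and 11.20, 11.23 and 11.24, and 11.34 and 11.40. Its induced arrays were the highest 2, and the difference of 0.13 (SE 0.07) had a limma adjusted p of 0.385. Bub1b, Ttk, Mad2l1 and Bub3 gave 0.14, 0.12, 0.10 and 0.07.

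Of the 3 genes of the anaphase-promoting complex and of mitotic entry ubiquitin ligases, 2 were above 0. Cdca3, an F-box-like protein that triggers the loss of the WEE1 kinase, read 11.53 and 11.53, 11.56 and 11.58, 11.52 and 11.58, and 11.76 and 11.74. The induced arrays lay clear of the other 6, with a difference of 0.20 (SE 0.07; limma adjusted p 0.155). Ube2c gave 0.14.

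Cdc20, the activator of the anaphase-promoting complex, went the other way. It read 12.73 and 12.69, 12.71 and 12.68, 12.77 and 12.77, and 12.70 and 12.70, the tightest set of values among the members. The 2 induced arrays lay below the Ik1ER ethanol arrays and within the range of the MigR1 arrays. The difference was -0.07 (SE 0.07, limma adjusted p 0.680). Its probe set may also bind related transcripts, and the other Cdc20 probe sets gave -0.04 and -0.11.

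Spindle motors and microtubule proteins had a median of 0.12 over 8 members, 6 of them above 0. Dlgap5, which bundles spindle microtubules, read 10.20 and 10.13, 10.21 and 10.22, 10.13 and 10.04, and 10.47 and 10.30. Both induced arrays lay above the other 6, by 0.30 against ethanol (SE 0.08; limma adjusted p 0.0864). Nusap1, another microtubule bundler, gave 0.21, Ckap5 0.19, Kif4 0.12 and Kif2c 0.11. The probe set that stood for Kif2c may bind related transcripts, and its other probe sets gave 0.18, 0.11 and -0.08.

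Ckap2, a spindle microtubule protein, read 10.14 and 10.04, 10.18 and 10.20, 10.10 and 10.15, and 10.05 and 9.97. Its induced arrays lay just below the Ik1ER ethanol arrays, at -0.11 (SE 0.07; limma adjusted p 0.528), and at -0.07 without Ik1ER 4OHT replicate 2. Kif20b gave -0.05.

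Kif11, the motor that pushes spindle poles apart, was singled out after its values were seen because its replicates parted most: 10.79 and 9.99 in Ik1ER 4OHT, with the other 6 arrays between 10.18 and 10.47. Its difference was 0.08 with the highest SE of the members, 0.22, and its other 2 probe sets gave 0.09 and 0.12.

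Genes of the central spindle and of cytokinesis had a median of 0.13 over 6 members, 5 of them above 0. Racgap1, a subunit of the centralspindlin complex, read 10.91 and 10.94, 10.96 and 11.00, 10.88 and 10.86, and 11.16 and 11.05. The induced arrays lay above the other 6, by 0.23 against ethanol (SE 0.07; limma adjusted p 0.118), while another Racgap1 probe set of like level gave 0.09. Prc1, which bundles the antiparallel microtubules of the midzone, read 10.47 and 10.38, 10.57 and 10.46, 10.55 and 10.56, and 10.74 and 10.79, a difference of 0.21 (SE 0.08; limma adjusted p 0.182). It too was highest on the induced arrays.

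Anln (anillin, a scaffold of the contractile ring) read 10.57 and 10.54, 10.51 and 10.49, 10.43 and 10.47, and 10.39 and 10.28. Its induced arrays were the lowest of the 8, at -0.12 against ethanol (SE 0.07; limma adjusted p 0.467), and at -0.06 without Ik1ER 4OHT replicate 2. Kif20a and Kif23, motors of the central spindle, gave 0.12 and 0.06.

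**Figure D3:**
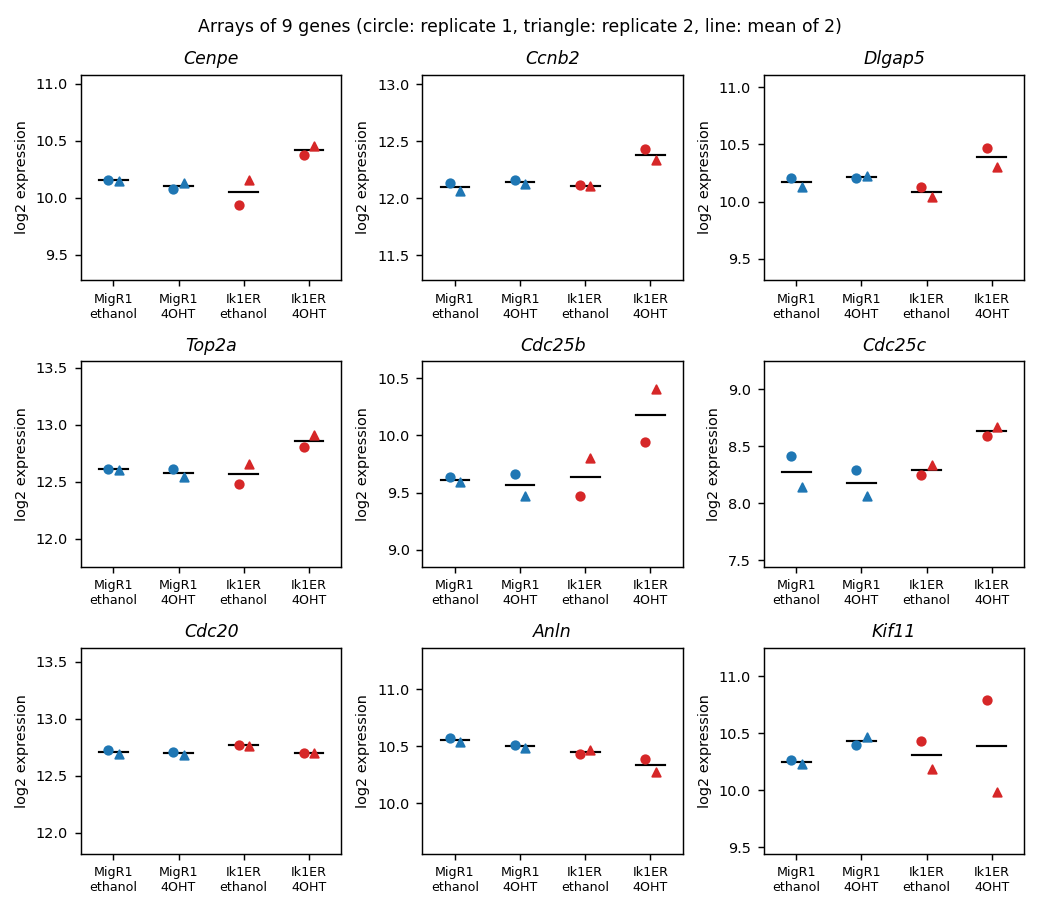
Log2 level of 9 members on each of the 8 arrays, by group (circles replicate 1, triangles replicate 2, lines the mean of the 2); the vertical axes of all panels span the same number of log2 units. Cenpe, Ccnb2, Dlgap5 and Top2a stand highest on both Ik1ER 4OHT arrays, Anln stands lowest there, and the 2 Kif11 values there lie farthest apart.

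In MigR1 cells, which carry the empty vector, no shift of the members with 4OHT was measured. Their median difference was 0.004 (quartiles -0.03 and 0.03), with 26 of 43 above 0 (60.5%, against 53.6% of genes). Limma called 0 members and 0 genes (0%), and at an unadjusted p under 0.05 it gave 0 members in either direction, against 179 genes higher (0.984%) and 207 lower (1.14%). Arrays did not overlap in 8 members higher (18.6%, against 16.5%) and 8 lower (18.6%, against 13.2%), shares near those of all genes. The members with the smallest p were Cenpf (-0.17), Ckap2 (0.10) and Prc1 (0.09), with an adjusted p of 1. Single MigR1 arrays moved each of these: Cenpf gave -0.11 without ethanol replicate 2 or without 4OHT replicate 1. Between arrays of the same number Cenpf fell alike, from 10.12 to 9.95 and from 10.23 to 10.07. Whether such arrays are pairs is not known. Ckap2 gave 0.15 without ethanol replicate 1 and 0.05 without replicate 2. Prc1 gave 0.05 without ethanol replicate 2, and 0.03 and 0.15 without 4OHT replicate 1 and 2. The members' 95% intervals reached from -0.44 (Cenpf) to 0.70 (Kif11), so differences of the size seen in Ik1ER cells are inside them for some genes.

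**Figure D4:**
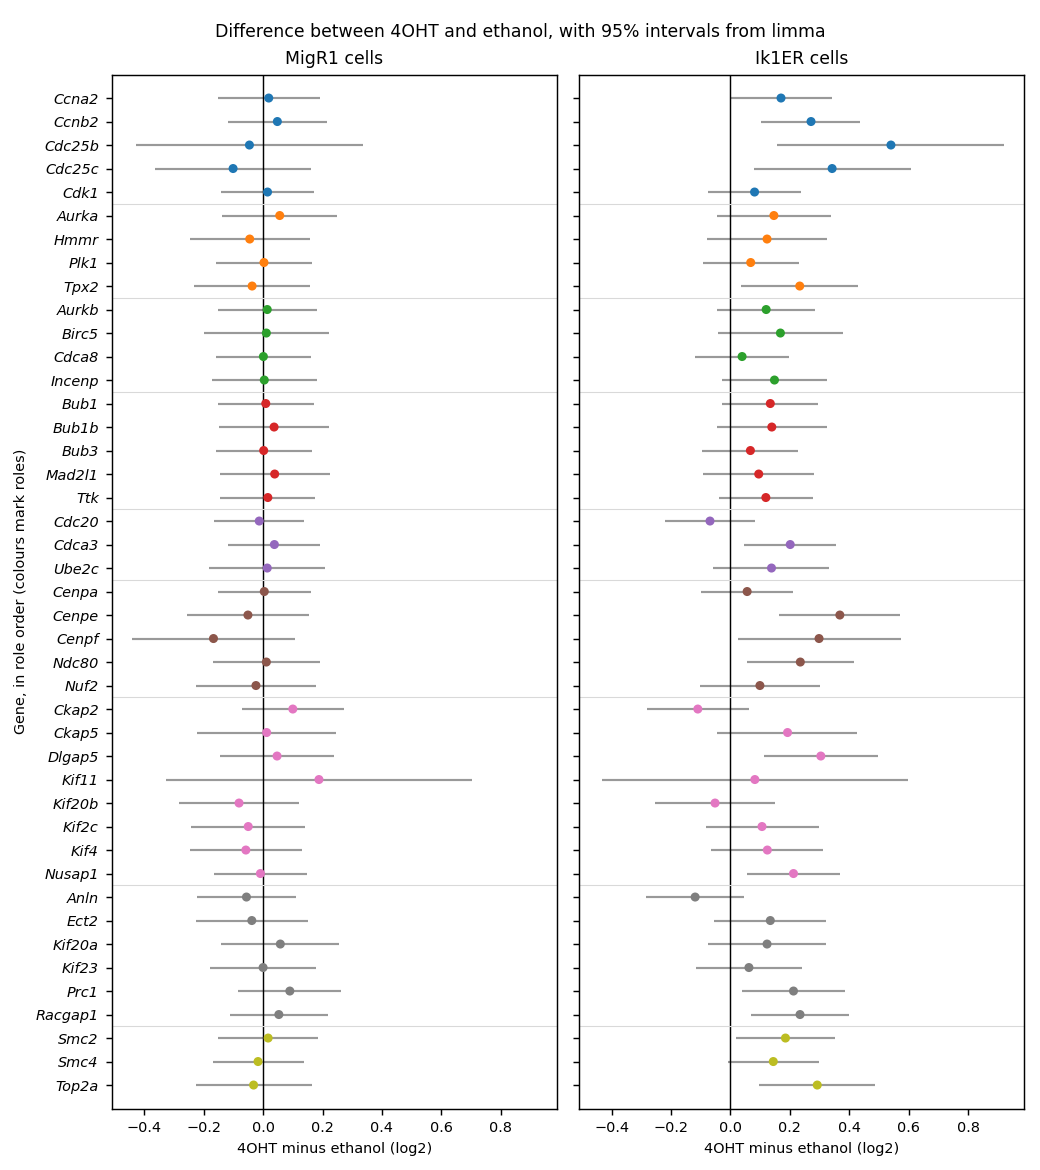
Log2 difference of 4OHT against ethanol for each member (points) with its 95% interval from limma (lines), in MigR1 cells (left) and in Ik1ER cells (right), members ordered and coloured by role. In Ik1ER cells 39 of 43 points lie above 0 and 14 intervals lie wholly above 0; in MigR1 cells 26 points lie above 0 and no interval excludes 0.

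The difference between these effects (Ik1ER minus MigR1) was tested directly. Its median over the members was 0.14, against -0.004 for all genes, and 39 of 43 members were above 0 (90.7%, against 48.9%). Limma called 0 members, against 230 genes (1.26%), of which 112 were higher (0.616%) and 118 lower (0.649%). At an unadjusted p under 0.05, 6 members were higher (14.0%, against 5.40%) and 0 lower (against 5.77%). The largest values were 0.59 for Cdc25b, 0.47 for Cenpf, 0.44 for Cdc25c (0.13 with its other probe set) and 0.42 for Cenpe, and the smallest adjusted p of any member was 0.21, for Cenpe. An effect of 4OHT on a single member was therefore not shown to differ between the lines.

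**Figure D5:**
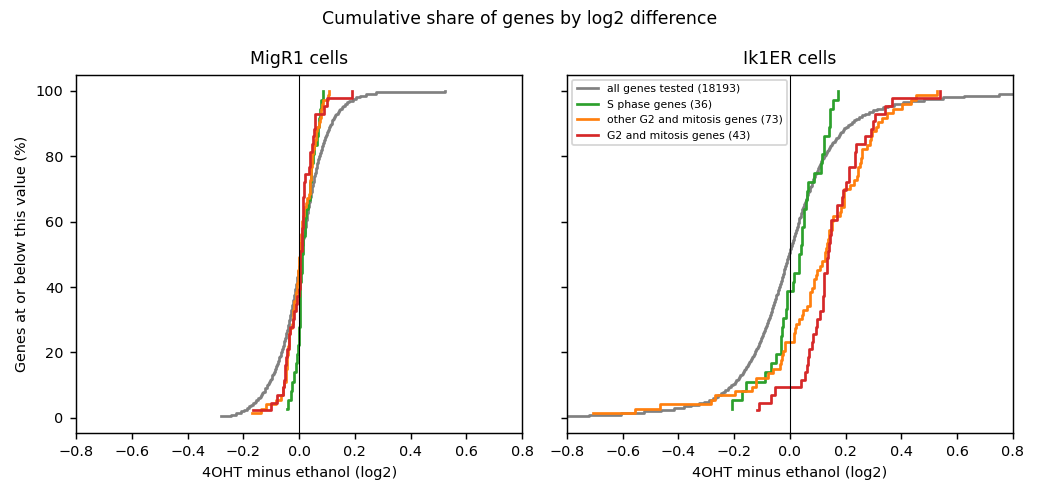
Share of genes (vertical axis, percent) whose log2 difference of 4OHT against ethanol is at or below the value on the horizontal axis, in MigR1 cells (left) and Ik1ER cells (right), for the 43 members, 73 other G2 and mitosis genes, 36 S phase genes and all 18193 genes. In Ik1ER cells the members' curve lies to the right of that of all genes over most of its length (medians 0.14 and -0.004). At the top it lies to the left, the highest member being at 0.54 and the highest gene at 3.02. In MigR1 cells all curves centre near 0.

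The lines were also compared with each other. In ethanol, Ik1ER and MigR1 cells differed by a median of 0.02 over the members, 25 of 43 being above 0 (58.1%, against 53.0% of genes). Limma called 0 members and 0 genes (0%), with 0 members in either direction at an unadjusted p under 0.05, against 3.11% of genes higher and 2.22% lower. Arrays did not overlap in 12 members higher (27.9%, against 20.7%) and 9 lower (20.9%, against 16.8%). The smallest p belonged to Ect2 (0.18, limma adjusted p 0.913), Nuf2 (0.15) and Prc1 (0.13). Without replicate 1 of Ik1ER ethanol the first 2 gave 0.27 and 0.26, without its replicate 2 they gave 0.09 and 0.04, and Prc1 gave 0.08 without MigR1 ethanol replicate 2.

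In 4OHT the line difference had a median of 0.13 over the members, with 39 of 43 above 0 (90.7%, against 49.2%). This comparison shares the Ik1ER 4OHT arrays with that against ethanol, so the 2 are not independent. Limma called 0 members, against 925 genes (5.08%; 2.91% higher and 2.17% lower). At an unadjusted p under 0.05, 17 members were higher (39.5%, against 9.65%) and 2 lower (4.65%, against 8.13%). Arrays did not overlap in 31 members higher (72.1%, against 22.2%) and in 2 lower (4.65%, against 22.6%), Anln and Ckap2.

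Ect2, the exchange factor that activates RhoA at the cleavage site, came closest. It read 9.96 and 10.02 in MigR1 ethanol, 9.97 and 9.94 in MigR1 4OHT, 10.08 and 10.26 in Ik1ER ethanol, and 10.31 and 10.30 in Ik1ER 4OHT. All 4 Ik1ER arrays lay above all 4 MigR1 arrays, so part of the gap was there in ethanol. The difference in 4OHT was 0.35 (SE 0.08; limma adjusted p 0.0522), against 0.13 for 4OHT in Ik1ER cells (adjusted p 0.473), which was 0.04 without replicate 1 of Ik1ER ethanol and 0.23 without replicate 2. Leaving out either Ik1ER ethanol array gave an adjusted p of 0.0453 for the line difference through the pooled spread alone. Cdc25c followed with 0.46 (adjusted p 0.0668) and Cdc25b with 0.61 (adjusted p 0.0849). With the trend and robust settings of eBayes 10 members were called in this comparison (23.3%, against 7.39% of genes), Ect2 and Cdc25c among them. With dim genes left out Cdc25c, Ect2 and Nusap1 were (6.98%, against 10.9%), and with quantile normalization repeated 1 member was (2.33%, against 5.77%).

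Other probe sets of the same genes gave a second reading. Of 60 further probe sets for 30 members, 46 (of 28 genes) lay above the highest Bacillus control mean. With 4OHT in Ik1ER cells 38 of the 46 were above 0 (82.6%, against 51.5% of all 23269 probe sets above that control) and 8 below, with a median of 0.12. Of the 8, those of Ttk (-0.22), Nusap1 (-0.13), Kif23 (-0.11), Kif2c (-0.08) and Bub1b (-0.04) went against the probe set used above. The rest were of Cdc20 and Anln, which read lower there too. In MigR1 cells 20 of the 46 were above 0 (43.5%, against 55.8%), with a median of -0.01. In Ik1ER cells limma, adjusted over all probe sets, called 0 of the 46, against 4.40% of the probe sets above that control. With the mean over all probe sets of a gene, dim ones included, the differences of Cdca3, Top2a, Racgap1, Tpx2 and Bub1 were 0.04, 0.19, 0.12, 0.15 and 0.08, and that of Anln was -0.19. The further probe sets share RNA and arrays with the probe sets used above and are not replicates of them.

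A further list of G2 and mitosis genes, outside the 44, was also chosen with earlier results of these data known. It moved about as far in the median and held called genes in both directions. Of its 73 measured genes 56 were above 0 with 4OHT in Ik1ER cells, against 48.8% of all genes. The median was 0.13, against 0.001 in MigR1 cells, where 0 were called. Limma called 5 higher and 3 lower, against 2.80% and 2.53% of all genes. The 5 that rose were Kif18b, a kinesin that trims astral microtubules (0.45, adjusted p 0.00836), Cdkn3, a phosphatase that acts on CDK proteins (0.43, adjusted p 0.0128), Cenpn (0.35, adjusted p 0.0265) and Cenpt (0.29, adjusted p 0.0458), both of the inner kinetochore, and Mxd3, a MAX partner (0.40, adjusted p 0.0437). Mxd3 and Cenpt were named after their values were seen, to complete the called genes. The calls of Cenpn, Mxd3 and Cenpt were lost in 10, 11 and 12 of 17 alternative analyses, those of Cdkn3 in 5 and of Kif18b in 3.

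The 3 that fell were Psrc1, Pimreg and Melk. Psrc1, which encodes a microtubule regulator of the spindle, read 9.97 and 9.84 in MigR1 ethanol, 9.94 and 9.90 in MigR1 4OHT, 9.89 and 9.91 in Ik1ER ethanol, and 9.16 and 9.23 in Ik1ER 4OHT. The 2 induced arrays lay far below the other 6, at -0.71 (SE 0.08; limma adjusted p 0.00220), a call kept in all 17 alternative analyses. Pimreg, a mitotic regulator bound by CALM, read 10.05 and 10.12, 10.11 and 10.22, 10.08 and 10.00, and 9.52 and 9.45, a difference of -0.55 (limma adjusted p 0.00688). That call was lost in 2 of 17 alternative analyses, with an adjusted p of 0.0503 without Ik1ER ethanol replicate 1 and 0.0653 without both Ik1ER replicate 2 arrays.

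Melk, a kinase that peaks in mitosis, likewise stood apart on the induced arrays, at 9.52 and 9.54 with the other 6 between 9.81 and 10.04, a difference of -0.46 (limma adjusted p 0.0100). That call was lost in 3 of 17 alternative analyses (adjusted p 0.0678 with only the compared groups fitted, 0.0720 without Ik1ER ethanol replicate 2 and 0.0959 without both Ik1ER replicate 2 arrays). Of the 43 members none read as low relative to ethanol as these 3, the lowest being Anln at -0.12. In 4OHT, Ik1ER against MigR1 cells, limma called 6 genes of this list higher, against 2.91% of all genes. The 6 were Cdkn3, Kif14, Depdc1a, Kif18b, Mxd3 and Spc25, at 0.35 to 0.64. The same 3 were called lower, against 2.17% of all genes. Over 17 alternative analyses (16 for Kif14) the calls of Mxd3, Spc25, Melk and Kif14 were lost in 10, 9, 9 and 8, of Kif18b in 3 and of Depdc1a in 2, and those of Cdkn3, Psrc1 and Pimreg in 0.

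Regulators of cell cycle promoters were measured as a list of 19 genes. The list held genes of the DREAM, B-MYB, FOXM1 and NF-Y complexes, and also E2f7 and E2f8, which are not part of these complexes. With 4OHT in Ik1ER cells the median of the list was 0.03, and 11 of 19 were above 0 (against 48.8% of all genes). Limma called 0 of them. The 3 of smallest p were E2f7 and E2f8, atypical E2F repressors, at 0.35 (adjusted p 0.0864) and 0.31 (adjusted p 0.102), and Rbl2, the p130 pocket protein of DREAM, at 0.36 (adjusted p 0.157). Rbl2 gave 0.23 without Ik1ER ethanol replicate 1 and 0.22 without Ik1ER 4OHT replicate 2, and E2f8 gave 0.16 without both Ik1ER replicate 2 arrays. Foxm1 gave 0.13 (adjusted p 0.689) and Mybl2, which encodes B-MYB, 0.02 (adjusted p 0.949), both named after their values were seen.

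S phase genes gave the neighbouring phase of the cycle. Of 36 measured, 22 were above 0 with 4OHT in Ik1ER cells (against 48.8% of all genes). Their median was 0.04, against 0.01 in MigR1 cells, and limma called 0. The 3 of smallest p were Gins2, of the replicative helicase (-0.21, adjusted p 0.188), Rrm2, of ribonucleotide reductase (0.17, adjusted p 0.255), and Rfc3, of the clamp loader (-0.21, adjusted p 0.321). Rfc3 gave -0.34 without Ik1ER 4OHT replicate 1 and -0.08 without replicate 2. The members' median thus lay above that of the S phase genes, 0.14 against 0.04, a description of 2 lists that was not tested.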

How the data were processed

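Biotin-labelled RNA of the 8 T29 samples was hybridised to Affymetrix arrays, and the authors deposited log2 values, 1 column per array. Per the submitters' processing notes RMA produced them. Its version, the probe set definition and any genome build: not given in the sources used here. The method sets arrays to a common distribution, so a global shift in RNA content cannot be seen. Of 45101 probe sets, 64 were controls, 34945 had 1 symbol, 932 several and 9160 none. The probe set of highest mean with exactly 1 symbol stood for a gene. One mean per group was fitted over the 8 arrays by lmFit and eBayes of limma 3.58.1 in R 4.3.3 (4 residual degrees of freedom, spread pooled over the groups), with 5 contrasts and Benjamini-Hochberg adjustment over 18193 genes; an adjusted p under 0.05 counts as called. Errors are standard errors from this fit, limited by the number of arrays.

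The members and lists were chosen with earlier results of these data known. Array values are given for the 3 members of smallest p in each contrast, the member of smallest p in each role and the 3 highest and 3 lowest differences in Ik1ER cells; from each further list the 3 of smallest p and up to 6 called genes are named. The fit was tested on simulated data. Motifs were searched on both strands of RefSeq promoter windows, matched by symbol. Alternatives were a replicate block, a filter on dim genes, trend and robust eBayes, repeated quantile normalization, median centring, the mean over a gene's probe sets, _x_at probe sets only where a gene has no other, the compared groups alone and each array left out in turn, as well as both Ik1ER replicate 2 arrays.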

Additional observations from a re-analysis of the deposited data

Results flagged for a closer look

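No member differed between the lines in its response to 4OHT by the test of the difference itself. Of the other G2 and mitosis genes, 2 did. For Psrc1 the effect in Ik1ER cells minus that in MigR1 cells was -0.72 (SE 0.11; limma adjusted p 0.0235), from effects of -0.71 and 0.02. For Pimreg it was -0.64 (SE 0.11; limma adjusted p 0.0398), from effects of -0.55 and 0.08. Each call was lost in 9 of 16 alternative analyses, among them leaving out MigR1 ethanol replicate 1 (adjusted p 0.0639 for Psrc1 and 0.177 for Pimreg). With 2 arrays a group, no array could be tested as an outlier.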

How the results depend on the processing

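The count of members called with 4OHT in Ik1ER cells, 0, became 1 with a replicate block (Cenpe, limma adjusted p 0.0431), 3 with dim genes left out, 8 with trend and robust eBayes, 1 with quantile normalization repeated, and 0 to 1 with single arrays left out. Between the lines in 4OHT, 0 became 3 with dim genes left out, 10 with trend and robust eBayes, 1 with quantile normalization repeated, 1 with the mean over probe sets, and 0 to 1 with single arrays left out. With trend and robust eBayes a larger share of the members than of all genes was called. The shares were 18.6% against 7.44% with 4OHT in Ik1ER cells and 23.3% against 7.39% between the lines in 4OHT. With dim genes left out the members' share was the smaller in both contrasts (6.98% against 10.9%), as with quantile normalization repeated. For the other settings these shares were not compared. The members' median level was 10.73, against 6.40 for all genes, and the part of level in the shares was not tested. Same-numbered arrays of a line deviated together (correlation 0.267 in MigR1 and 0.446 in Ik1ER). Across lines the correlation was -0.069 to 0.101, so the numbers were not taken to pair samples across lines. Those values do not answer whether arrays were paired within a line. The replicate block fitted a shift of replicate 2 that both lines shared. Pairing within a line was modelled neither in the main fit nor in any alternative. The replicate block moved no member count in the other contrasts. The other 3 contrasts called 0 members in every alternative run. Over the alternatives the number of members above 0 with 4OHT in Ik1ER cells was 37 to 39. Their median there was 0.19 with both Ik1ER replicate 2 arrays left out and 0.12 to 0.19 over all alternatives. The median difference of effects was 0.12 with centred arrays, 0.17 without those 2 arrays and 0.10 to 0.16 with single arrays left out. Between the lines in 4OHT the median was 0.18 without those 2 arrays and 0.13 to 0.18 with single arrays left out. In ethanol it was 0.062 with centred arrays, -0.014 without those 2 arrays and -0.019 to 0.043 with single arrays left out. The causes were not tested. Over all genes the count called with 4OHT in Ik1ER cells, 971, ranged from 389 to 1354, that of the difference of effects, 230, from 52 to 444, and that between the lines in 4OHT, 925, from 237 to 1344. Differences of members under about 0.3 lie below the smallest difference called in any gene, and 2 arrays a group limit what can be resolved.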

Other observations

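Between the lines in 4OHT, 3 of the 19 listed regulators were called higher in Ik1ER cells, against 2.91% of all genes. They were Rbl2 and the atypical E2F repressors E2f7 and E2f8. E2f7 read 6.42 and 6.45 in MigR1 and 6.96 and 7.11 in Ik1ER cells, a difference of 0.60 (limma adjusted p 0.0113). E2f8 differed by 0.43 (adjusted p 0.0336) and Rbl2 by 0.55 (adjusted p 0.0414). In each of the 3 the Ik1ER ethanol arrays already lay above the MigR1 arrays (6.66 and 6.72 for E2f7, 9.94 and 9.84 for E2f8, 8.13 and 8.39 for Rbl2). The calls were lost in 4, 10 and 8 of 17 alternative analyses. The values of Mki67, the proliferation marker Ki-67, were 12.05 and 12.36 in Ik1ER ethanol and 12.24 and 12.56 in Ik1ER 4OHT. The groups overlap (0.20, limma adjusted p 0.532), but between arrays of the same number Mki67 rose in both. Whether such arrays are pairs is not known.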
